A study of Homo sapiens with 2 samples.

Results

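The cells described here are drug-tolerant persister (DTP)-like cells of a lung adenocarcinoma line that held high RARRES1 mRNA and no ANKRD1 mRNA. They come from 1 droplet single-cell RNA-seq run, in which 5 populations were tagged with hashing antibodies and pooled. PC9 cells were either left untreated or kept in 150 nM osimertinib for 4 or 11 days, and NCI-H358 was present without drug and after 8 days in 500 nM sotorasib. PC9 is an EGFR-mutant line and osimertinib inhibits mutant EGFR, while NCI-H358 is another lung cancer line. The count matrix has 0 hashtag rows, so no cell was assigned to a line, drug or day, and every group is a range of expression among the cells of 1 run.

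Members were chosen by measured values. A cell had to have 1000 or more detected genes, at most 20% of its unique molecular identifiers (UMIs) in mitochondrial genes, EGFR at 150 CPM (counts scaled to a total of 1000000) or more and NKX2-1 at 0 UMIs, which made it PC9-like. It also had to hold 800 CPM or more summed over IGFBP3, FN1, HLA-B and CCDC80, which made it persister-like. Of 8748 barcodes, 8540 met the quality limits and 2612 met the PC9-like persister-like gate. Within this gate 1787 cells had 0 ANKRD1 UMIs, and the 373 of them at 500 CPM RARRES1 or more are the RARRES1-high cells. They made up 4.26% of all barcodes and 14.3% of the gate (95% Clopper-Pearson interval 13.0 to 15.7, counting error only). The 1050 cells of the same gate with 0 ANKRD1 UMIs and RARRES1 under 200 CPM, called RARRES1-low, served as the comparison. The remaining 364 cells lay between 200 and 500 CPM, with 46 cells at 450 to under 500 CPM and 33 cells at 500 to under 550 CPM, so the limit cut through a continuous range of RARRES1 levels.

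RARRES1 (retinoic acid receptor responder 1) encodes a membrane protein that retinoids induce in epithelia and that is known as a growth-restraining gene often silenced in carcinomas. ANKRD1 is a well-known target of the YAP/TEAD transcription factors. Drug-tolerant persister cells are the small part of a tumour cell population that survives a targeted drug without a resistance mutation, usually with little cycling and low output of the ERK pathway. In airway, bladder and other lining epithelia, membrane mucins, uroplakins, lipocalin and simple and stratified keratins mark differentiated surface cells.

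In short, the RARRES1-high cells held more KRT13, AOC1, MUC20, PLAAT4, LYPD2, MUC1 and LCN2 mRNA than the RARRES1-low cells. They held less mRNA of cell cycle genes, of 5 of 14 ERK output genes and of ITGA6, INHBA, SERPINE2 and CPA4. With the cycling cells left out of both groups, KRT13, AOC1, MUC20 and PLAAT4 stayed 2-fold or more higher, and ITGA6, INHBA, SERPINE2 and CPA4 stayed 2-fold or more lower. In that comparison 0 S phase or G2/M genes on the lists were called, but its cells were chosen by cycling markers. The run is 1 sample without replicates, so no test was possible. Each level is the CPM of UMIs summed over a group of cells, and its exact 95% Poisson interval covers counting error only. A gene was called when log2 of the ratio of (CPM + 5) reached 1, that is 2-fold, in either direction.

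Depth, doublets and line identity were examined first. RARRES1-high cells had a median of 26543 UMIs and 5424 genes per cell, against 32090 UMIs and 5988 genes in RARRES1-low cells. Scrublet called 1 of 373 RARRES1-high cells (0.268%) a doublet but 97 of 1050 RARRES1-low cells (9.24%), against 7.44% of all cells past the limits. The H358-like marker MMP7 was at 0.384 CPM in RARRES1-high cells, 18.1 CPM in RARRES1-low cells and 136 CPM in 1939 H358-like cells (NKX2-1 at 50 CPM or more and EGFR under 100 CPM), and the whole list of 16 H358-like markers summed to 833, 715 and 1815 CPM in the same order, with 8 of the 16 at 5 CPM or more in RARRES1-high or RARRES1-low cells. NKX2-1 was at 0 UMIs by the rule. A total of 13 RARRES1-high and 60 RARRES1-low cells carried 100 CPM or more summed over MMP7, SFTA3, SPANXC, SPANXB1, CYP1A1 and MUC15. These differences in doublet calls and foreign genes are given beside the results they touch, and their part in those results was not tested.

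RARRES1 itself is a description, since its level chose the cells. Over the 373 cells it had a lowest value of 500.9, a median of 924 and a highest value of 4385 CPM, from 2 UMIs in the lowest cell to a median of 26 and a highest count of 167 UMIs. In RARRES1-low cells the median was 35.9 CPM and 67.1% of cells had at least 1 RARRES1 UMI. Summed, the level was 1101 CPM (1081 to 1121) in RARRES1-high cells and 54.6 CPM (52.3 to 57.1) in RARRES1-low cells. It was 9.13 CPM in 1486 naive-like PC9-like cells, which have the same EGFR and NKX2-1 limits but under 200 CPM of the 4 persister-like genes, and 4.54 CPM in H358-like cells. The label of persister-like was checked on genes outside the rule. Against naive-like cells, 44 of 47 measured G2/M genes and 13 of 17 ERK output genes were 2-fold or more lower in RARRES1-high cells, where 9.91% of all measured genes were lower, with median log2 ratios of -2.12 and -1.61 against 0.07 for all genes. Only 1 of 1486 naive-like cells and 1 of 1939 H358-like cells reached 500 CPM of RARRES1. High RARRES1 was not confined to the gate, however. Of the 572 cells past the quality limits that reached 500 CPM of RARRES1, 148 lay outside the PC9-like persister-like gate.

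**Figure D1:**
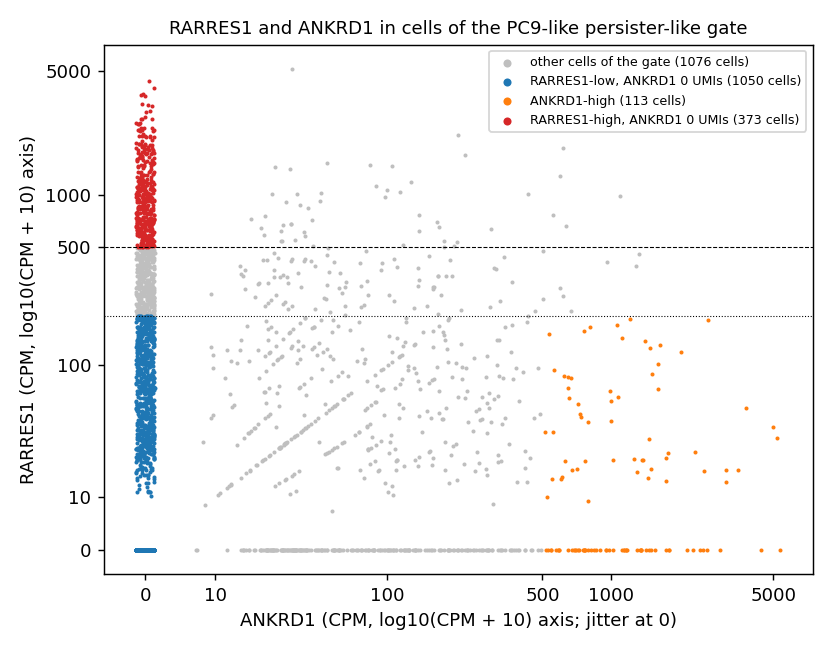
RARRES1 level (vertical axis) against ANKRD1 level (horizontal axis) in each of the 2612 cells of the PC9-like persister-like gate, both in CPM on log10(CPM + 10) axes, with side-to-side jitter at 0 ANKRD1. The dashed line marks 500 CPM and the dotted line 200 CPM of RARRES1; the 373 RARRES1-high cells and 1050 RARRES1-low cells stand at 0 ANKRD1, and 113 ANKRD1-high cells stand at 500 CPM ANKRD1 or more.

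The requirement of 0 ANKRD1 UMIs left out few cells of high RARRES1. Among the 825 gate cells with at least 1 ANKRD1 UMI, 51 (6.18%, 4.64 to 8.05) reached 500 CPM of RARRES1, against 20.9% (19.0 to 22.8) of the 1787 cells without ANKRD1 UMIs. Among the 126 gate cells at 500 CPM ANKRD1 or more, 5 (3.97%, 1.30 to 9.02) did so. The ANKRD1-high cells used below as a neighbouring group are the 113 cells of the gate at 500 CPM ANKRD1 or more and RARRES1 under 200 CPM. They were deeper, with a median of 49425 UMIs.

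For the genes the description turns on, positions are given on hg38 from GENCODE release 44. RARRES1 lies on chr3:158696892-158732489 (minus strand), AOC1 on chr7:150824627-150861504 (plus strand), KRT13 on chr17:41500981-41505705 (minus strand), MUC20 on chr3:195720884-195741123 (plus strand) and PLAAT4 on chr11:63536808-63546462 (plus strand). ALPP and ALPG, the placental and germ cell alkaline phosphatases, are neighbours on the plus strand of chromosome 2, at chr2:232378724-232382889 and chr2:232406844-232410714. Of the 90-base windows in the ALPG transcripts, 17.4% also occur in ALPP transcripts, so reads of these paralogs could have been split or dropped during counting and their separate levels are uncertain.

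Promoter windows of RARRES1, the gene that defines the cells, and of the ALPG and ALPP pair, whose levels differ widely although the genes are close copies, are shown 5′ to 3′ from RefSeq (GRCh38.p14), from 250 bases before to 50 bases after the start. Capitals mark the hexamer AGGTCA on either strand, the core to which retinoic acid receptors and other nuclear receptors bind. The RARRES1 window is chr3:158732408-158732707 on the minus strand, and the ALPG and ALPP windows are chr2:232406594-232406893 and chr2:232378501-232378800 on the plus strand.
RARRES1: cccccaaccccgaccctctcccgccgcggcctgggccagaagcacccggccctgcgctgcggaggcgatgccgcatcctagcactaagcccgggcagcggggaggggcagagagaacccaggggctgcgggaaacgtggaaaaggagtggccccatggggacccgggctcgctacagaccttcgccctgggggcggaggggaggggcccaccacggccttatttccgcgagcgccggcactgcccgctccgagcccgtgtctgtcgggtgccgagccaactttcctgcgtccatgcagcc
ALPG: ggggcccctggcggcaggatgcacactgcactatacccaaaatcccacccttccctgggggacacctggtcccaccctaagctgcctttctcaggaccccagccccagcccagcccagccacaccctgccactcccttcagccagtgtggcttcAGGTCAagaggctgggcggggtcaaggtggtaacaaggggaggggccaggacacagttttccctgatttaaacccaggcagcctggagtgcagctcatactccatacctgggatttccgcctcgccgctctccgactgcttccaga
ALPP: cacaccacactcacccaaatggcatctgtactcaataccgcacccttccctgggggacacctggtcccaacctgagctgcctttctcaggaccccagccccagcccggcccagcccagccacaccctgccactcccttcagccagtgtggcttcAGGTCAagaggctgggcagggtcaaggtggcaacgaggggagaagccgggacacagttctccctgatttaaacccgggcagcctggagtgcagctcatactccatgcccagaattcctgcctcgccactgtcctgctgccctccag

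The hexamer AGGTCA begins at base -96 in both the ALPG and the ALPP window and has 0 matches in the RARRES1 window. It is held by 13.8% of the 35116 promoter windows in the RefSeq table. Searches on both strands for AGTTCA, a variant of that hexamer, for TGANTCA, bound by AP-1, for GGAATG, bound by TEAD factors, and for AACCNGTT, bound by Grainyhead factors, found 0 matches in the RARRES1, ALPG, ALPP, AOC1 and GABRP windows. These letters occur in 10.4%, 7.71%, 14% and 1.73% of all windows. The LCN2 window held 1 match to TGANTCA and 2 to GGAATG. The ALPG and ALPP windows were identical at 260 of 311 aligned positions (83.6%). Windows of KRT13, MUC20, PLAAT4, BCAS1 and UPK2 were not analysed here.

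Across 10790 measured genes, 54 (0.500%) were 2-fold or more higher in RARRES1-high than in RARRES1-low cells and 191 (1.77%) were 2-fold or more lower. The median log2 ratio of all measured genes was -0.01. Of the higher genes 2, RARRES1 and HLA-B, belong to the rule that chose the cells. Besides RARRES1, the RARRES1-high cells had fewer cycling cells, fewer doublet calls and fewer UMIs per cell. Low-cycling cells were therefore also compared alone, meaning cells with at most 1 UMI summed over 6 cycling markers (BIRC5, CDK1, CENPF, MKI67, TOP2A, UBE2C) after each cell was thinned to 10000 UMIs. Among the 329 RARRES1-high and 597 RARRES1-low cells of this kind, 27 of 10582 measured genes (0.255%) were 2-fold or more higher and 23 (0.217%) were 2-fold or more lower. Of the 54 genes that were higher in all cells 25 were also called higher in low-cycling cells, and of the 191 lower genes 16 were also called lower. With the RARRES1-low cells reweighted to the depth of the RARRES1-high cells, 31 genes were higher and 67 lower.

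The highest ratios after RARRES1 were those of KRT13 and AOC1. KRT13, a keratin of the suprabasal layers of moist stratified epithelia, stood at 168 CPM (160.3 to 176.1) in RARRES1-high cells and 26.9 CPM (25.3 to 28.6) in RARRES1-low cells, a log2 ratio of 2.44. AOC1, the diamine oxidase that degrades histamine and putrescine, stood at 73.9 CPM (68.8 to 79.4) against 11.5 CPM (10.5 to 12.7), a log2 ratio of 2.26. Both were also higher in low-cycling cells, with log2 ratios of 2.05 and 2.01. The order among other groups differed between the genes. KRT13 was at 26.6 CPM in ANKRD1-high cells, whose interval of 22.7 to 31.0 overlaps that of RARRES1-low cells, and at 8.93 CPM in naive-like cells. AOC1 was lower in ANKRD1-high cells, at 2.92 CPM, but was at 12.6 CPM in naive-like cells, close to the RARRES1-low level.

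Membrane mucins were higher as well. MUC20, a transmembrane mucin with a near-identical pseudogene that makes its count uncertain, stood at 305.9 CPM (295.4 to 316.7) in RARRES1-high cells and 95.9 CPM (92.8 to 99.1) in RARRES1-low cells, a log2 ratio of 1.62. It was at 3.64 CPM in naive-like cells, 32.9 CPM in ANKRD1-high cells and 44.8 CPM in H358-like cells. Of the 3 other measured mucins 2 were called higher, with a median log2 ratio of 1.31. MUC1 was at 57.3 against 19.4 CPM (log2 ratio 1.35) and MUC16, the CA-125 antigen, at 126.7 against 48.0 CPM (log2 ratio 1.31). MUC4 was at 7.30 and 9.86 CPM, a log2 ratio of -0.27. In low-cycling cells the log2 ratios of MUC20 and MUC1 were 1.20 and 1.02, and that of MUC16 was 0.85.

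Surface and secreted proteins of other families followed. LYPD2, of the Ly6 family, stood at 117 against 40.0 CPM (log2 ratio 1.44), UPK2, a uroplakin of the bladder lining, at 227 against 97.5 CPM (1.18), and GABRP, a GABA receptor subunit expressed in epithelia, at 72.6 against 21.9 CPM (1.53). All 3 were at or under 11.3 CPM in naive-like cells. LCN2, an iron-binding lipocalin of mucosal defence, was the most abundant of the genes called higher outside the rule, at 1686 CPM (1661 to 1711) against 708.1 CPM (699.6 to 716.6), a log2 ratio of 1.25. It was detected in every RARRES1-high cell, from 216.6 to 8571 CPM with a median of 1462 CPM, and was at 301.4 CPM in naive-like and 23.6 CPM in H358-like cells. In low-cycling cells LYPD2 and GABRP had log2 ratios of 1.01 and 1.14, while those of UPK2 and LCN2 were 0.76 and 0.88, under the 2-fold limit.

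Other genes among the 20 highest were BCAS1 (86.2 against 24.3 CPM, log2 ratio 1.64), TMEM45B (90.1 against 32.0 CPM, 1.36), ASS1 (694.7 against 276.4 CPM, 1.31), PLAT (76.5 against 29.4 CPM, 1.24) and CFD (145 against 60.1 CPM, 1.21). ASS1 catalyses a step of arginine synthesis, PLAT is the tissue plasminogen activator and CFD is complement factor D. S100P, ADIRF, SYTL2 and IGFL2-AS1, an antisense transcript whose counting by strand is not given in the sources used here, had log2 ratios of 1.18 to 1.20, with S100P at 596 against 257 CPM and ADIRF at 1526 against 666 CPM. For 19 of the 20 genes, RARRES1 of the rule among them, the interval of the naive-like level lay below that of the RARRES1-low level. The exception was AOC1, and the share of all measured genes is not given here. Of the 52 higher genes outside the rule, 33 were 2-fold or more higher in RARRES1-low than in naive-like cells. For that comparison the share of all measured genes is not given here, so the count is a description. In RARRES1-high cells 50 of the 52 were 2-fold or more higher than in naive-like cells, against 13.4% of all measured genes. The 52 genes were chosen for a higher level in RARRES1-high cells, so this excess is partly fixed by the choice.

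**Figure D2:**
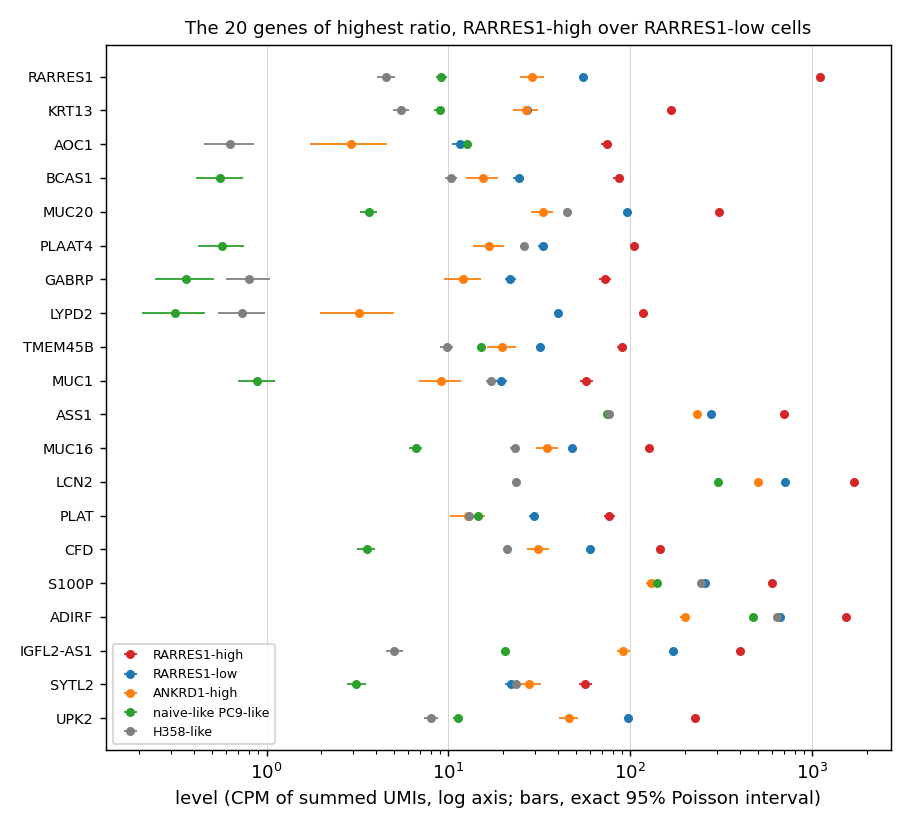
Levels of the 20 genes of highest ratio in 5 groups of cells, in CPM of summed UMIs on a log axis, with exact 95% Poisson intervals as bars. RARRES1-high cells hold the highest level of every gene shown, which the choice of genes fixed against RARRES1-low cells; naive-like PC9-like cells are at 0.361 CPM for GABRP and 0.314 CPM for LYPD2.

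ALPG, named as a marker of these cells, stood at 46.2 CPM (42.2 to 50.5) in RARRES1-high cells and 13.7 CPM (12.5 to 14.9) in RARRES1-low cells, a log2 ratio of 1.45. Its paralog ALPP was at 874 against 490 CPM in the same cells, a log2 ratio of 0.83. Both were low in naive-like cells, at 0.733 and 26.6 CPM. Of 12 measured genes of alkaline phosphatases and other GPI-anchored proteins, 11 had log2 ratios above 0 in all cells, with a median of 0.38 and a lowest value of -0.17. In low-cycling cells all 12 were above 0, with a median of 0.22. None reached 2-fold in either comparison. This list did not count ALPG, which is among the markers.

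Retinoid genes did not move together. PLAAT4, also known as RARRES3 and, like RARRES1, a retinoid-induced gene, was at 105 CPM (98.9 to 111.5) in RARRES1-high cells and 33.0 CPM (31.2 to 34.9) in RARRES1-low cells, a log2 ratio of 1.53, and at 0.57 CPM in naive-like cells. It was the only member of the 16 measured retinoid genes called higher, and the list median was 0.23. STRA6, a retinol transporter, was at 35.2 against 17.1 CPM (log2 ratio 0.86), DHRS3, a retinaldehyde reductase, at 89.0 against 63.3 CPM (0.46) and CYP26A1, the enzyme that degrades retinoic acid, at 9.03 against 5.79 CPM (0.38). FABP5, a fatty acid and retinoic acid carrier, was called lower, at 10.5 against 56.5 CPM (-1.99). In low-cycling cells its log2 ratio was -0.97, while PLAAT4 kept 1.20. LXN, the latexin gene related to RARRES1, had 0 UMIs in RARRES1-high cells, which allows up to 0.288 CPM.

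Genes of MHC class I were mostly higher without reaching 2-fold. Of the 12 measured members other than HLA-B, which belongs to the rule, 0 were called in either direction and 11 had log2 ratios above 0, with a median of 0.58 against -0.01 for all genes. The class I genes are close copies of each other, so reads could have been split among them and single levels are uncertain. B2M, the light chain, was at 1998 against 1119 CPM (0.83). The median was 0.41 in low-cycling cells, again with 11 of 12 above 0. Of 20 interferon response genes 1, IFIT2, was called higher (36.3 against 14.99 CPM, log2 ratio 1.05), and the list median was 0.31. Its log2 ratio in low-cycling cells was 0.64.

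Of the 9 measured genes of complement and the acute phase, 2 were called higher, LCN2 and SAA2 (31.1 against 12.7 CPM, log2 ratio 1.03, uncertain beside its close copy SAA1), with a median of 0.51. Complement factor D, CFD, is not on this list. It was called higher in all cells (145 against 60.1 CPM, log2 ratio 1.21) and had a log2 ratio of 0.79 in low-cycling cells. C3 was at 144.5 against 76.8 CPM (0.87) and CFB at 41.9 against 21.1 CPM (0.85). Airway secretory genes had a median of 0.61 and 0 of 5 called. SLPI, an antiprotease of airway secretions, was at 578.9 against 334.8 CPM (0.78). In low-cycling cells 0 of 9 complement and acute phase genes were called and their median was 0.47.

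Keratins split. Of 14 measured keratins 3 were called higher (KRT13, KRT15 and KRT23) and 1 lower (KRT6B, 2.98 against 11.5 CPM), with a median log2 ratio of 0.13. KRT15 was at 98.2 against 43.3 CPM (1.10) and KRT23 at 42.6 against 17.9 CPM (1.06). KRT16 reached 212.4 against 104.6 CPM (0.99), while KRT5 was at 14.8 against 33.1 CPM (-0.94) and KRT17 at 6.53 against 17.0 CPM (-0.93). In low-cycling cells KRT17 was called lower (-1.35), while KRT6B (-0.11) was under the 5 CPM filter in both groups and could not be called. Among squamous genes the calprotectin subunit S100A8 was called higher (16.0 against 2.61 CPM, log2 ratio 1.47). Naive-like cells held 13.7 CPM of S100A8, close to the RARRES1-high level. S100A9, the other subunit, was at 120.4 against 68.1 CPM in all cells (0.78) and at 117 against 42.0 CPM in low-cycling cells (1.38). S100A9 was at 474.9 CPM in naive-like cells, above both groups. The epithelial transcription factor GRHL3 was the only called member of 17 Grainyhead, GATA, ELF and KLF factors (17.2 against 5.69 CPM, log2 ratio 1.05, and 1.02 in low-cycling cells). Of 15 tight junction genes 14 had log2 ratios above 0 with 0 called, and the median was 0.33.

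Cell cycle genes made up the most coherent lower group. Of 47 measured G2/M genes 40 were called lower, with a median log2 ratio of -1.38, and of 38 S phase genes 12 were called lower, with a median of -0.85. MKI67 was at 21.7 CPM (19.0 to 24.7) in RARRES1-high and 103.5 CPM (100.3 to 106.8) in RARRES1-low cells, against 220.7 CPM in naive-like cells. CENPF was at 60.7 against 253 CPM, TYMS at 12.8 against 65.2 CPM and PBK at 17.96 against 91.8 CPM. After thinning to 10000 UMIs, 41 of 370 RARRES1-high cells (11.1%, 8.07 to 14.7) held 2 or more UMIs of the 6 cycling markers, against 41.7% (38.7 to 44.8) of 1024 RARRES1-low cells and 96.3% of naive-like cells. Without thinning the shares were 25.5% and 57.7%. Leaving the cycling cells out left log2 medians of -0.35 for 23 G2/M genes and -0.43 for 26 S phase genes still measured, with 0 called. The low-cycling cells were chosen by the 6 cycling markers, so a loss of such calls follows from that choice. A difference remained, since the 6 markers summed to 27.6 CPM in low-cycling RARRES1-high and 47.7 CPM in low-cycling RARRES1-low cells. CDKN3 was still called lower there (2.44 against 10.6 CPM, log2 ratio -1.07). CDKN1A, which encodes the inhibitor p21, was not higher (11.4 against 16.4 CPM).

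ERK output genes were lower in all cells, with 5 of 14 called and a median log2 ratio of -0.53. DUSP6, an ERK phosphatase induced by ERK itself, was at 1.15 against 7.65 CPM, and at 48.3 CPM in naive-like cells. FOSL1 was at 6.63 against 20.5 CPM, DUSP4 at 18.8 against 45.6 CPM, ETV4 at 2.31 against 9.83 CPM and IER3 at 68.7 against 143 CPM. In low-cycling cells only IER3 of 11 measured members was called (log2 ratio -1.04). DUSP6 (1.22 against 2.55 CPM, log2 ratio -0.28) and ETV4 (1.89 against 3.53 CPM, -0.31) were under the 5 CPM filter in both groups there. They could not be called, and the pseudocount of 5 CPM draws such ratios toward 0.

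Among the 12 lowest ratios outside the cell cycle stood S100A2 (10.3 against 75.3 CPM, log2 ratio -2.39), MT2A, a metallothionein (77.3 against 391.5 CPM, -2.27), and ITGA6, the integrin of hemidesmosomes (11.4 against 65.8 CPM, -2.11). H358-like cells held 1583 CPM of S100A2 and 5704 CPM of MT2A. With Scrublet calls and cycling cells both left out, the log2 ratios were -0.42 for S100A2, -0.86 for MT2A and -1.17 for ITGA6, against -1.14, -1.37 and -1.35 with cycling cells alone left out. All 3 were thus called without cycling cells, and ITGA6 was called with doublet calls left out as well. The part of doublets in these values was not tested. ITGA6 was at 380.5 CPM in naive-like cells.

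**Figure D3:**
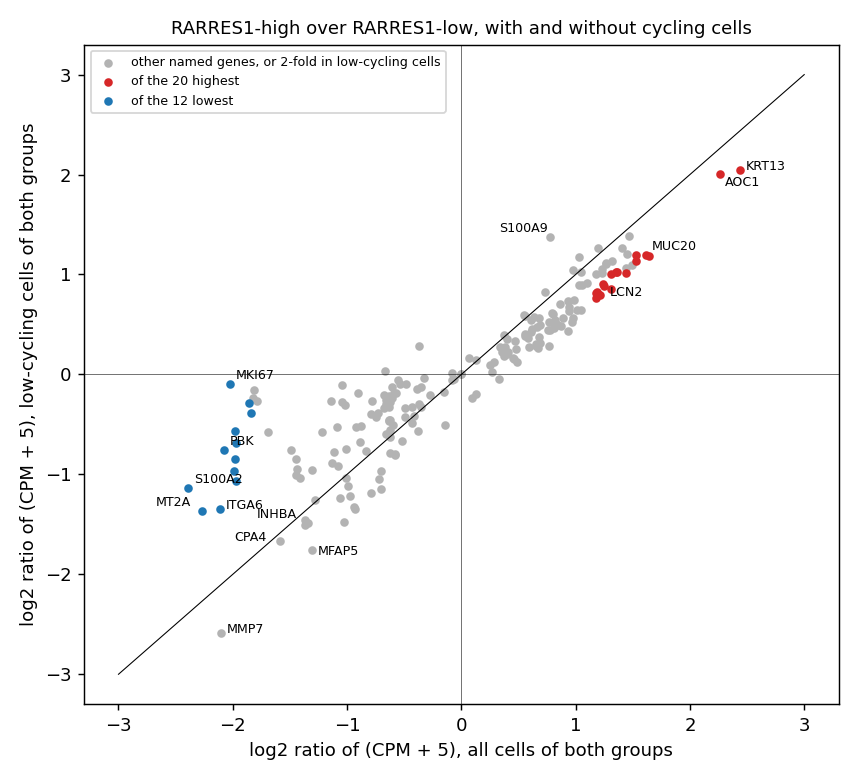
Log2 ratio of (CPM + 5), RARRES1-high over RARRES1-low, in all cells (horizontal axis) and in low-cycling cells alone (vertical axis), for the genes named and those called in low-cycling cells, without RARRES1; the diagonal marks equal ratios. KRT13 and AOC1 stay near 2 on both axes, MKI67 moves from -2.02 to near 0, and MFAP5 lies further from 0 in low-cycling cells.

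Of the 23 genes called lower in low-cycling cells, several that encode secreted or matrix proteins are given here, chosen after their values were seen and not as a tested group. INHBA, a subunit of activin, was at 48.3 CPM in low-cycling RARRES1-high cells and 145 CPM in low-cycling RARRES1-low cells (log2 ratio -1.49). SERPINE2 was at 57.1 against 143.8 CPM (-1.26), CPA4, a carboxypeptidase, at 13.2 against 52.9 CPM (-1.67) and MFAP5, a microfibril protein, at 2.77 against 21.3 CPM (-1.76). DKK1, a Wnt antagonist, was at 73.5 against 178.4 CPM (-1.22), TGFB2 at 10.1 against 27.8 CPM (-1.12) and FBN1, fibrillin, at 4.66 against 17.0 CPM (-1.19). FN1 was at 345.3 against 970.6 CPM (-1.48), but FN1 is among the genes that chose both groups. Not all matrix genes were lower, since FBLN1, fibulin, was called higher in all cells at 1659 against 813.5 CPM (log2 ratio 1.02). Other genes called lower in low-cycling cells included TRBC2 (-1.04), STXBP6 (-1.01) and SCN9A (-1.24).

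Levels of some of these genes in ANKRD1-high cells are set beside the same RARRES1-low cells. INHBA was at 602.3 CPM there against 123.8 CPM in all RARRES1-low cells, DKK1 at 406.6 against 141.6 CPM, CPA4 at 209.1 against 59.3 CPM and TGFB2 at 68.2 against 23.9 CPM. MYL7 departed from this, at 12.5 CPM in ANKRD1-high cells and 71.0 CPM in RARRES1-low cells, while its low-cycling log2 ratio in RARRES1-high cells was -1.51. Others of the genes called lower in low-cycling cells were also lower in ANKRD1-high than in RARRES1-low cells. Among them were MMP7 (0.648 against 18.1 CPM), CDKN3 (40.8 against 96.7 CPM) and STXBP6 (12.8 against 28.5 CPM). S100A2 (58.6 against 75.3 CPM) and ITGA6 (57.7 against 65.8 CPM) differed less. Of 21 YAP/TEAD targets 2 were called lower in RARRES1-high cells, AXL (15.6 against 39.9 CPM) and THBS1 (20.3 against 48.5 CPM), with a list median of -0.18 in all cells and -0.19 in low-cycling cells. In low-cycling cells the log2 ratios of AXL and THBS1 were -0.89 and -0.92, under the 2-fold limit. Of 12 TGF-beta targets 0 were called in all cells, with a median of -0.24, and the median was -0.32 in low-cycling cells. The 13 mesenchymal-like markers summed to 29.2 CPM in RARRES1-high, 43.3 CPM in RARRES1-low and 140 CPM in ANKRD1-high cells, with COL1A2, COL3A1, PDGFRB and THY1 at 0 UMIs in RARRES1-high cells. The 8 immune and endothelial markers summed to 15.5 and 9.52 CPM in RARRES1-high and RARRES1-low cells.

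Other lists had few or 0 called members. The alveolar type 1 list had a median of 0.22 with 0 of 9 called. HOPX, an alveolar type 1 gene, was at 10.5 CPM (8.59 to 12.6) in RARRES1-high cells, 6.22 CPM (5.45 to 7.07) in RARRES1-low cells, 0.489 CPM in naive-like cells and 65.5 CPM in H358-like cells. In low-cycling cells it was at 10.98 against 9.38 CPM with overlapping intervals, and its log2 ratio of 0.46 ranged from -0.28 to 0.86 over the alternatives, with the opposite sign in 3 of 17, so no direction is given for it. After thinning, 7.03% of RARRES1-high and 3.81% of RARRES1-low cells held a HOPX UMI, with overlapping intervals of 4.64 to 10.1 and 2.72 to 5.17. BCL2 family genes had a median of 0.15 and integrated stress genes of 0.08. Heat shock genes had a median of -0.48 with 1 of 12 above 0, genes of hypoxia and glycolysis a median of -0.36 with 2 of 21 above 0, and genes of cholesterol and fatty acid synthesis a median of -0.36 with 2 of 17 above 0. In low-cycling cells the medians of these lists were -0.20, -0.27 and -0.26. Lysosomal genes had a median of 0.20 with 19 of 22 above 0 in all cells, and of 0.04 with 12 of 22 above 0 in low-cycling cells. CTSH, a cathepsin, was at 657.7 against 332.7 CPM (log2 ratio 0.97).

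**Figure D4:**
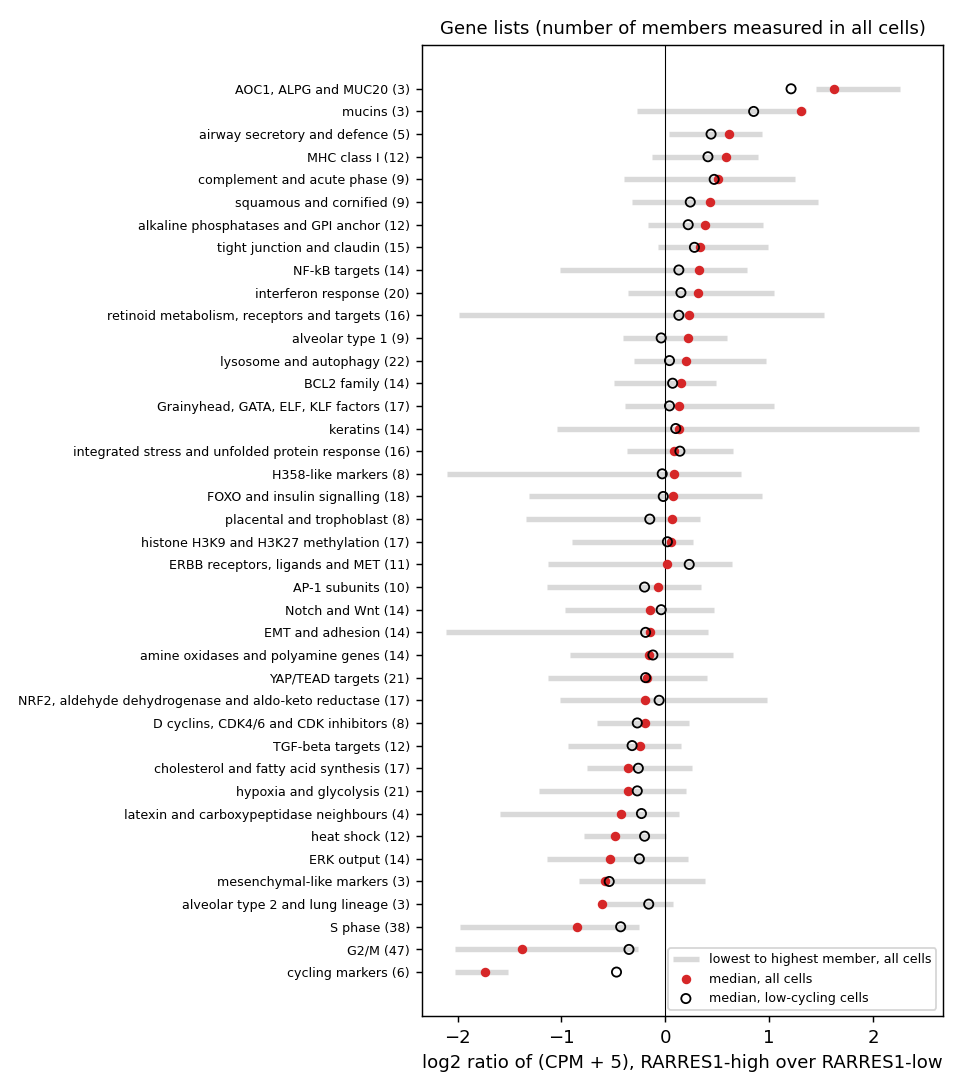
Median log2 ratio of (CPM + 5), RARRES1-high over RARRES1-low, of each gene list in all cells (filled) and in low-cycling cells (open), with a grey bar from the lowest to the highest member in all cells and the number of members measured in parentheses. The cycling, G2/M and S phase lists have the lowest medians and move toward 0 in low-cycling cells; mucins, airway secretory genes and MHC class I stay above 0 in both.

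Levels changed by steps over RARRES1. The 1787 gate cells without ANKRD1 UMIs were divided into 345 cells with 0 RARRES1 UMIs, 705 above 0 to under 200 CPM, 364 at 200 to under 500 CPM, 209 at 500 to under 1000 CPM and 164 at 1000 CPM or more. Of the 19 genes of highest ratio other than RARRES1, 16 rose in level at every step, the exceptions being KRT13, S100P and UPK2. Of the 12 genes of lowest ratio 9 fell at every step, the exceptions being S100A2, MKI67 and CDKN3. The 6 cycling markers summed to 989.5, 954.7, 336.6, 332.3 and 162.9 CPM over the bins, so the cells at 200 to under 500 CPM resembled the members just above the limit in this measure. The bins under 200 CPM together are the RARRES1-low cells, and those at 500 CPM or more are the RARRES1-high cells. All bins but that at 200 to under 500 CPM thus chose the genes. The direction from the lower to the upper bins is fixed by that choice. The share of all measured genes that rose or fell at every step is not given here, so the counts are a description.

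**Figure D5:**
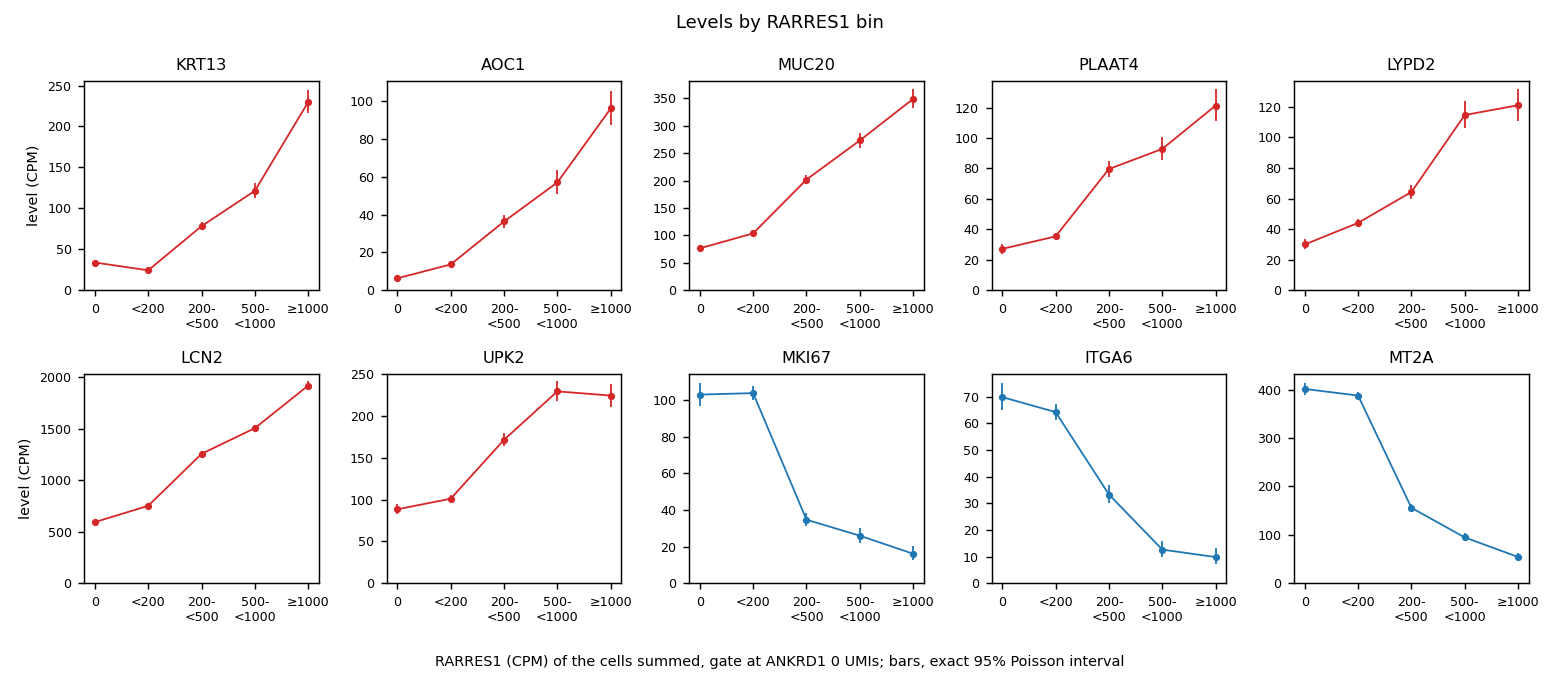
Level in CPM of summed UMIs, with exact 95% Poisson intervals, of 10 genes in 5 bins of RARRES1 among the gate cells without ANKRD1 UMIs (345, 705, 364, 209 and 164 cells from left to right). KRT13, AOC1, MUC20, PLAAT4, LYPD2, LCN2 and UPK2 are higher in the right-hand bins, and MKI67, ITGA6 and MT2A lower. KRT13, UPK2 and MKI67 do not change in the same direction at every step.

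The RARRES1-high cells were not uniform. The tenth of the cells (38 cells) with the most of each gene held 77.9% of all KRT13 UMIs, 71.3% of AOC1, 71.5% of ALPG and 60.8% of LYPD2 UMIs, against 23.3% for RARRES1 and 22.5% for ALPP. KRT13 had a median of 0 and a highest value of 6742 CPM over the cells, and AOC1 a median of 0 and a highest value of 2102 CPM. MUC20 was more even, with a median of 263.3 CPM. With every cell thinned to 10000 UMIs, KRT13 was detected in 32.4% of 370 RARRES1-high cells (27.7 to 37.5) and 11.6% of RARRES1-low cells (9.72 to 13.7), and in 5.13% of naive-like and 2.95% of H358-like cells. AOC1 was detected in 22.7% (18.5 to 27.3) and 6.45% (5.02 to 8.13), against 10.7% of naive-like cells, so the RARRES1-low share of AOC1 was below that of naive-like cells. MUC20 was detected in 80.0% and 46.5%, against 2.77% of naive-like cells. Without thinning KRT13 was detected in 45.6% and 22.7%, and AOC1 in 29.0% and 11.2%.

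At this depth KRT13, AOC1, ALPG and LYPD2 were each detected in a minority of RARRES1-high cells, and few cells held all 4. Of the 370 thinned RARRES1-high cells, 31.9% had a UMI of none of the 4 genes, 34.6% of 1, 24.6% of 2, 7.30% of 3 and 1.62% of all 4. AOC1 was found in 28.3% of the 120 cells with KRT13 and 20% of the 250 without it. ALPG was found in 20.8% and 22.4% of the same cells, whereas it was found in 30.8% of the 130 cells with LYPD2 and 17.1% of the 240 without it. AOC1 was found in 35.8% of the 81 cells with ALPG and 19% of the 289 without it. KRT13 and ALPG were the only pair of these genes not found together more often than apart in this sense. The part of sparse detection in these shares was not tested. In RARRES1-low cells 66.7% had a UMI of none of the 4.

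Over 1756 gate cells without ANKRD1 UMIs, thinned to 10000 UMIs, the genes whose level ran most closely with RARRES1 were LCN2 (Spearman correlation 0.44), ADGRF1 (0.40), PSCA (0.38), MUC20 (0.38), ASS1 (0.38) and FXYD3 (0.38), among 5267 genes detected in at least 20% of the cells. ADIRF, LGALS3, FBLN1, CTSH and B2M were also among the 12 most alike, at 0.36 to 0.34. The most opposite were HMGB1 (-0.33) and PFN1 (-0.30). These cells share 1 library and its free RNA, and the values are a description.

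RARRES1-high cells lay together in expression space when the rule's genes and the markers were left out. Among the 15 nearest gate cells in 30 principal components, a mean of 38.7% were RARRES1-high for a RARRES1-high cell, against 24.6% for a cell at 200 to under 500 CPM RARRES1, 10.1% for a RARRES1-low cell and 1.12% for an ANKRD1-high cell. Members were 14.3% of the gate. With S phase and G2/M genes also left out the mean was 38.0%. Only 29.8% of RARRES1-high cells had more than 50% members around them.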

How the data were processed

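Per the labels, 5 cell populations were hashed and pooled into 1 10x Genomics run. The authors deposited UMI counts per gene and barcode, made with Cell Ranger 7.1.0 per the file headers and hg38 per the submitters' processing notes. The annotation, the use of intronic reads and the barcode filter are not given in the sources used here. The hashtag names and the hashtag library were not used here, since the matrix has 0 hashtag rows. The matrix holds 36601 genes and 361434462 UMIs, and the groups compared range from a median of 26543 UMIs per cell in RARRES1-high to 53382.5 in naive-like cells.

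The members and gene lists were chosen with earlier results of these data known. Counts were summed over the cells of a group and scaled to CPM, with a pseudocount of 5 CPM, a filter at 5 CPM in either group and 2-fold as the call. No test was made across cells. Genes reaching 50 CPM in either group were named where their ratio was among the 20 highest or 12 lowest (mitochondrial, ribosomal protein and clone-named genes left out). Up to 4 members of largest absolute ratio per list, the 12 genes most like RARRES1 and a fixed set of rule and marker genes were named too, and a few other list members and low-cycling calls were named after their values were seen. Cells were thinned without replacement (seed 1), those under 10000 UMIs being left out. That removed 3 RARRES1-high and 26 RARRES1-low cells. Doublet calls were kept in the main values. Tools were Python 3.11.15, NumPy 2.4.6, SciPy 1.17.1, pandas 2.3.3, Scanpy 1.11.5 (Scrublet), and edgeR 4.0.16 in R 4.3.3 for TMM factors. The contrast was tested on simulated data. UMI intervals and limits at 0 (3 counts) cover counting error only. Alternatives covered scaling, filters, depth, doublets, cycling, gate limits and thinning. Results for a few genes are not reported here.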

Additional observations from a re-analysis of the deposited data

How the results depend on the processing

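The number of genes 2-fold or more higher was 54 and lower 191. The higher count moved to 107 with a reference at any ANKRD1 level, 85 with members at 1000 CPM RARRES1 or more, 111 with a reference at 0 RARRES1 UMIs and 114 with a pseudocount of 1 CPM. The lower count was 286, 256, 241 and 375 in the same order. With RARRES1-low cells reweighted to the members' depth the counts were 31 and 67, of which 28 and 65 were among the 54 and 191. In low-cycling cells alone they were 27 and 23, and without Scrublet calls in addition, an alternative added after seeing the data, 23 and 21. TMM scaling, totals that exclude ribosomal protein and mitochondrial genes, means over cells, Scrublet calls left out, other gate limits and filters, and cells with H358-like genes left out (also added after seeing the data) gave 41 to 71 higher and 151 to 230 lower genes. Log2 ratios ranged from 2.02 to 2.88 for KRT13, 1.97 to 2.81 for AOC1, 1.18 to 2.06 for MUC20 and 1.17 to 1.87 for PLAAT4, all above 1. That of MKI67 ranged from -2.36 to -0.05, that of S100A2 from -2.92 to -0.42 and that of MMP7 from -3.78 to -0.08. The share of RARRES1-high cells with KRT13 was 40.9% at 20000 UMIs and 45.6% without thinning, that with AOC1 29.0% without thinning, and the cycling share 20.6% and 25.5%. Of the 191 lower genes, 7 changed sign in low-cycling cells and 9 with Scrublet calls left out as well, the largest being AURKB, from -1.04 to 0.21 and 0.24, and the others ending at 0.09 or less; no called gene changed sign under the other alternatives. No paired analysis was possible because the run is 1 sample and no group has replicate numbers. Depth limits single cells: at the lowest, 2 RARRES1 UMIs placed a cell among the members.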
